A study of Mus musculus with 6 samples.

Results

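The genes described here encode proteins of the cornified envelope, the insoluble protein shell that replaces the membrane of a dying keratinocyte. They were picked by symbol alone from the table of values: 47 protein-coding genes of 55481 genes in all. There were 21 Lce genes (late cornified envelope), 15 Sprr genes (small proline-rich), 6 S100-fused genes (Flg, Flg2, Hrnr, Rptn, Tchh and Tchhl1) and 5 others (Lor, Ivl, Crct1, Lelp1 and Cnfn). On the mouse build GRCm38, 46 of the 47 lay within 1.39 Mb of chromosome 3, from 92080271 to 93471980, in the epidermal differentiation complex. Cnfn, which encodes cornifelin, lay on chromosome 7, from 25367620 to 25369724. Sprr2g and Sprr2c-ps were outside the selection because the table types them as pseudogenes.

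PolyA RNA was read from isolated tumour cells of mice. In both populations the tumours were skin squamous cell carcinomas induced by DMBA, a carcinogen, followed by the promoter TPA. One population had high Itga6, the integrin alpha 6 chain of basal keratinocytes, and carried CD80, and the series text calls these cells stem-like (Itga6hi CD80pos, 2 libraries). The other had low Itga6 and no CD80, and the series text calls these cells differentiated (Itga6low CD80neg, 2 libraries). The study's stated aim was to learn how the stem-like cells act on neutrophils, and 2 further libraries with high Itga6 and no CD80 were not analysed here. The labels give no mouse strain, age or gate beyond these 2 markers, and do not name the animals behind the 2 replicates of a population. The p-values therefore reflect the spread of these libraries only. Values are TPM, transcript levels per length scaled to 1000000 in every library, so levels can be compared between genes but the depth of each library is unknown. Each value below is given as 2 libraries of Itga6hi CD80pos against 2 libraries of Itga6low CD80neg, replicate 1 before replicate 2, and log2 fold changes run the same way.

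Keratinocytes leave the basal layer, pass through the spinous and granular layers and end as flat dead cells. In the granular layer transglutaminases join loricrin, involucrin, small proline-rich proteins and late envelope proteins into the envelope, while filaggrin packs the keratin filaments. Loricrin and the Lce1 proteins are late components of normal epidermis. Several Sprr genes are low in resting skin and are raised in wounds, inflammation and squamous tumours.

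The libraries held unequal mixes of RNA. The 12 keratinocyte markers summed to 67763 and 64881 TPM in Itga6hi CD80pos and to 3251 and 9694 TPM in Itga6low CD80neg, and 11 of the 12 were higher by limma. All 8 basal markers were higher, led in level by the basal keratin Krt14 at 26606 and 29432 TPM against 1244 and 4000.5. Itga6 is among the 8 and is a marker that the populations were sorted by, so its call is not a finding. Over all tested genes 57.0% were called higher and 9.48% lower. Red blood cell genes, 9 of 9 lower, summed to 199 and 70.3 TPM against 712351 and 505641, with the beta globin gene Hbb-bs highest at 81.0 and 22.4 TPM against 328205 and 222614. Fibroblast genes, 10 of 10 lower, summed to 13.4 and 18.3 TPM against 9718 and 6038, with the collagen gene Col3a1 highest at 2.22 and 2.56 TPM against 2963 and 2123. Keratinocyte RNA was thus a small part of the libraries that the series text calls differentiated. In bulk RNA, fewer keratinocytes and less RNA per keratinocyte cannot be told apart, and the part of the cell mix in the differences below was not tested.

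The cornified genes did not move as a block. Of 21 Lce genes, 20 had both Itga6hi CD80pos libraries below both Itga6low CD80neg libraries, whereas 14.5% of all genes above 0 in at least 1 library were separated in that direction (12.9% of tested genes). Of 15 Sprr genes, 10 overlapped between the populations, 3 were higher without overlap (background 43.1%, or 73.5% of tested genes) and 2 were lower without overlap. A limma test of log2(TPM + 1) covered the 13474 genes that reached 1 TPM in 2 or more libraries, 42 of the members among them. At a Benjamini-Hochberg adjusted p under 0.05, 21 members were lower and 2 were higher in Itga6hi CD80pos. Over all tested genes 9.48% were called lower and 57.0% higher. Of the 42 tested members, 18 passed the filter on low values through Itga6low CD80neg alone and were bound to differ, so the counts of calls are a description. Without any filter the test called 14 of the 47 members lower and 0 higher by adjusted p, against 2.78% and 14.9% of 30663 genes. At an unadjusted p under 0.05 it gave 23 members lower and 2 higher, against 2066 and 8953 of the 30663 genes. With either Itga6hi CD80pos library left out, most calls were lost, among the members and over all tested genes alike. With either Itga6low CD80neg library left out instead, most were kept in both. Each such fit leaves 1 library in a population. Across these fits the median log2 fold change ran from -2.47 to -1.85 for tested Lce genes and from -0.63 to 1.46 for Sprr genes. Most of the calls named below, as most calls over all tested genes, therefore depended on having both Itga6hi CD80pos libraries. The Lce median stayed negative in each of these fits, so a lost Lce call is not a lost direction.

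**Figure D1:**
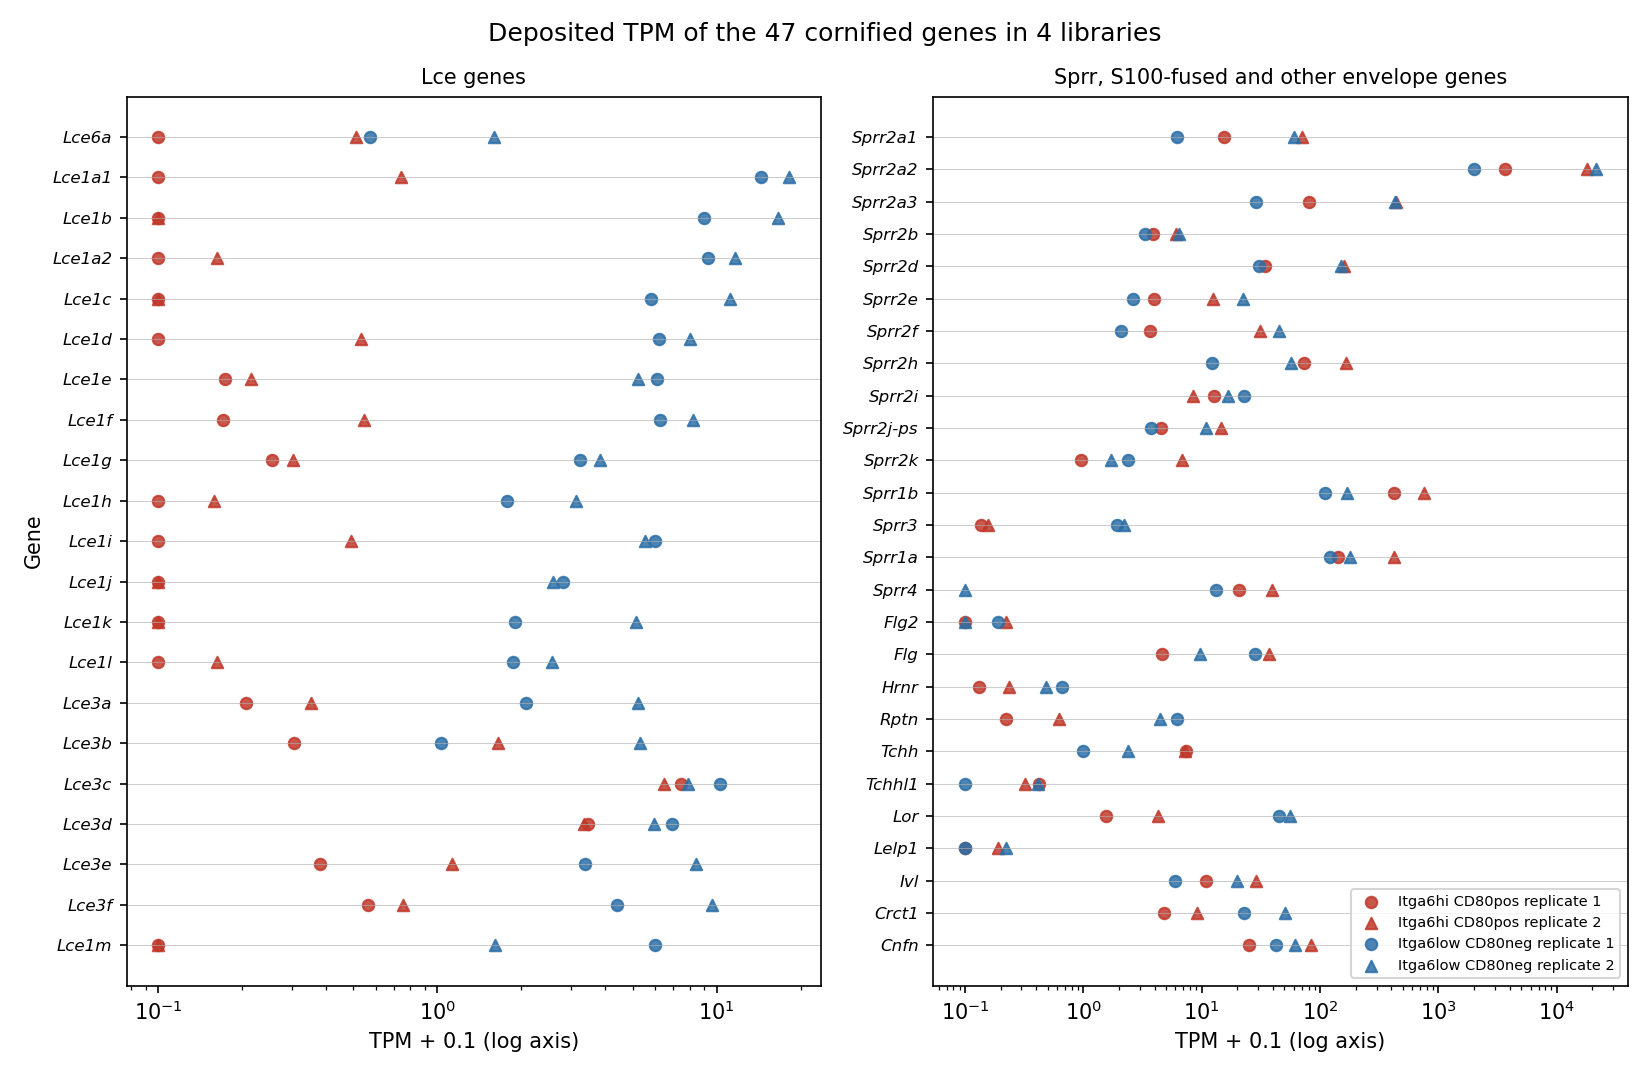
TPM of each of the 47 cornified genes in the 4 libraries, on a log axis after adding 0.1 TPM. Red symbols are Itga6hi CD80pos and blue symbols Itga6low CD80neg, with circles for replicate 1 and triangles for replicate 2. In the left panel red lies left of blue for every Lce gene except Lce3b, and in the right panel most Sprr genes overlap.

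The Lce1 genes were at or near 0 in Itga6hi CD80pos. All 14 were lower without overlap. Their TPM summed to 0.2997 and 2.41 in Itga6hi CD80pos and to 79.3 and 102 in Itga6low CD80neg. Lce1a1 was the most abundant in Itga6low CD80neg, at 0 and 0.638 TPM against 14.3 and 18.1, with a log2 fold change of -3.74 ± 0.36 (SE) and an adjusted p of 0.00372 by limma. Lce1a2 was next in level among those with a nonzero value in each population, at 0 and 0.0625 TPM against 9.20 and 11.5, and its log2 fold change was -3.45 ± 0.28 (SE), with an adjusted p of 0.00296. No Lce1 gene reached 1 TPM in either Itga6hi CD80pos library, and none was under 1 TPM in an Itga6low CD80neg library. All 14 thus passed the filter through Itga6low CD80neg alone and were bound to differ, so their adjusted p are a description. Without a filter limma called 11 of the 14 lower, beside 2.78% of all genes. The adjusted p by limma was then 0.0288 for Lce1a1 and 0.0275 for Lce1a2.

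Lce1b, Lce1c, Lce1j, Lce1k and Lce1m were listed at 0 in both Itga6hi CD80pos libraries, so no fold is given for these 5 genes. Lce1b had 8.91 and 16.4 TPM in the Itga6low CD80neg libraries and Lce1c had 5.71 and 11.1 TPM. Lce1m, the Lce1 gene farthest from the others on the chromosome, had 5.93 and 1.51 TPM there. The remaining Lce1 genes ranged between 0 and 0.447 TPM in Itga6hi CD80pos and between 1.67 and 8.15 TPM in Itga6low CD80neg. Lce6a, a single-gene branch of the family, was under the filter at 0 and 0.412 TPM against 0.471 and 1.499.

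The Lce3 genes stood above the Lce1 genes in Itga6hi CD80pos. In human skin the LCE3 genes are known for induction after barrier injury and in psoriasis. The 6 Lce3 genes summed to 11.8 and 13.1 TPM in Itga6hi CD80pos and to 27.5 and 41.9 TPM in Itga6low CD80neg. They made up 97.5% and 82.3% of all Lce TPM in Itga6hi CD80pos, against 25.7% and 28.8% in Itga6low CD80neg. The 2 populations did not overlap in this share, which does not move when a library is scaled by 1 factor.

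Within Lce3, 2 genes carried most of the RNA in Itga6hi CD80pos. Lce3c had 7.38 and 6.39 TPM against 10.2 and 7.81, with a log2 fold change of -0.34 ± 0.30 (SE) and an adjusted p of 0.355. Lce3d had 3.36 and 3.26 TPM against 6.85 and 5.87, with a log2 fold change of -0.77 ± 0.28 (SE) and an adjusted p of 0.0542. Both were lower without overlap, and neither passed limma on the deposited values. Lce3d was called lower under each of the 4 other scalings, with log2 fold changes of -1.72 to -3.91 and adjusted p up to 0.0435. Lce3c was called lower under all of these except haemoglobin left out of the total (log2 fold change -1.64, adjusted p = 0.0739).

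The other Lce3 genes were lower by more. Lce3f had 0.466 and 0.654 TPM against 4.28 and 9.54 (log2 fold change -2.26 ± 0.41 SE, adjusted p = 0.00869). Lce3e had 0.279 and 1.03 TPM against 3.29 and 8.32 (adjusted p = 0.0176), and Lce3a had 0.107 and 0.254 TPM against 1.98 and 5.14 (adjusted p = 0.0141). Lce3f and Lce3a passed the filter through Itga6low CD80neg alone, and without a filter none of these 3 calls held, with adjusted p by limma of 0.0518 for Lce3f, 0.0907 for Lce3e and 0.0820 for Lce3a. The call on Lce3e was also lost without Itga6low CD80neg replicate 2 (adjusted p = 0.0630 by limma). Lce3b overlapped, at 0.206 and 1.55 TPM against 0.930 and 5.23 (adjusted p = 0.232). Transcripts of this family resemble each other closely, which limits how well reads can be split between them. Of the 31-base words in the annotated transcripts of Lce3d, 39.7% occurred in no other mouse gene, and Lce3f shared 52.3% of them. For Lce1 genes the share of unique words ran from 41.2% for Lce1i to 99.1% for Lce1m.

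Loricrin was lower in Itga6hi CD80pos, as the Lce1 genes were. Lor, the main envelope protein of mouse epidermis (chromosome 3, 92080271 to 92083142, minus strand), had 1.45 and 4.17 TPM against 44.7 and 56.1. The populations were far apart, with a log2 fold change of -3.84 ± 0.45 (SE) and an adjusted p of 0.00468. All 31-base words of its transcripts were unique, so shared reads do not enter. Crct1, a cysteine-rich protein encoded beside Lce1m, was also lower, at 4.70 and 9.09 TPM against 22.7 and 50.03 (log2 fold change -2.20 ± 0.51 SE, adjusted p = 0.0158). The call on Crct1 was also lost without Itga6low CD80neg replicate 2 (adjusted p = 0.0681 by limma) and without a filter (0.0650). Lelp1 was near 0 throughout, at 0 and 0.0898 TPM against 0 and 0.121.

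The S100-fused genes split. Rptn, which encodes the envelope protein repetin, had 0.124 and 0.521 TPM against 6.03 and 4.34 and was lower (log2 fold change -2.23 ± 0.32 SE, adjusted p = 0.00603). Rptn passed the filter through Itga6low CD80neg alone, and without a filter its adjusted p by limma was 0.0408. Hrnr, encoding hornerin, was under the filter and lay lower without overlap, at 0.0324 and 0.135 TPM against 0.557 and 0.383. Flg, encoding the keratin-packing protein filaggrin, overlapped at 4.48 and 36.9 TPM against 28.1 and 9.57 (adjusted p = 0.815). Its highest library was Itga6hi CD80pos replicate 2 and its lowest was the other library of the same population.

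Tchh stood apart from the rest of that group. Trichohyalin, its product, hardens the inner root sheath of the hair follicle. Tchh had 7.33 and 7.18 TPM against 0.892 and 2.30, with a log2 fold change of 1.72 ± 0.36 (SE) and an adjusted p of 0.0124. None of the 4 other scalings gave this call (adjusted p up to 0.231), and scaling to keratinocyte genes turned the direction to -1.05. Of 19 inner root sheath and hair shaft markers in the table, 10 were tested, 1 was higher and 1 lower. They summed to 66.9 and 58.3 TPM against 43.4 and 97.8, and the peptidylarginine deiminase Padi3, which modifies trichohyalin, was the most abundant and the 1 called higher, at 11.95 and 37.9 TPM against 0.104 and 0.243. The list as a whole ran the other way, with a median log2 fold change of -0.68 over its tested genes and a lower mean in Itga6hi CD80pos in 10 of 19, among them the inner root sheath keratin Krt73, the 1 called lower, at 3.12 and 1.87 TPM against 5.28 and 13.1. The part of hair follicle cells in the Tchh difference was not tested. Flg2 and Tchhl1 were under the filter, with no library above 0.323 TPM.

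The Sprr genes were the most abundant cornified genes in sum, and the most abundant of them varied more between replicates than between populations. Sprr2a2 had 3678 and 18029 TPM in Itga6hi CD80pos and 2007 and 21388 TPM in Itga6low CD80neg. In both populations replicate 2 was the higher library. The log2 fold change was 0.31 ± 1.65 (SE), with a 95% interval from -3.86 to 4.49 and an adjusted p of 0.876. Reads can hardly be assigned within this group: 2.17% of the 31-base words of Sprr2a2 transcripts were unique, 97.8% were shared with Sprr2a1, and the 2 annotated genes overlap on the same strand. Sprr2a1 had 15.2 and 70.7 TPM against 6.11 and 60.5, and Sprr2a3 had 79.8 and 435 TPM against 28.5 and 429. Summed over Sprr2a1, Sprr2a2 and Sprr2a3, TPM were 3773 and 18535 against 2042 and 21877, and this sum held 83.9% to 97.1% of all Sprr TPM in the 4 libraries.

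Sprr1a and Sprr1b encode cross-bridging envelope proteins with fully distinct transcripts. Sprr1b had 423 and 748 TPM against 110 and 169.9, and the populations did not overlap. Its log2 fold change was 2.03 ± 0.55 (SE) with an adjusted p of 0.0234, with no call under 3 of the other scalings (adjusted p up to 0.251) and a lower call of -1.52 when scaled to keratinocyte genes (adjusted p = 0.0358). The call was also lost without Itga6low CD80neg replicate 1. Sprr1a had 142 and 423 TPM against 122 and 178 and overlapped (log2 fold change 0.73 ± 0.65 SE, adjusted p = 0.357).

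Most other Sprr2 genes overlapped. Sprr2d had 34.3 and 159.6 TPM against 30.4 and 150, with a 95% interval of the log2 fold change from -2.46 to 2.71. Sprr2f had 3.57 and 30.9 TPM against 1.96 and 44.7, and Sprr2e had 3.85 and 12.5 TPM against 2.52 and 22.4. In these 3 genes the replicate 2 library was the higher one of each population. Sprr2b, at 3.81 and 5.94 TPM against 3.22 and 6.33, had the narrowest interval among the overlapping Sprr genes, from -0.95 to 1.06. Sprr2j-ps overlapped at 4.47 and 14.3 TPM against 3.62 and 10.8 (limma adjusted p = 0.699), and Sprr2k at 0.857 and 6.76 TPM against 2.27 and 1.63 (0.650).

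The exceptions within the Sprr family went both ways. Sprr3, a gene of oesophagus and other internal squamous linings, was lower, at 0.0368 and 0.0576 TPM against 1.81 and 2.09 (log2 fold change -1.49 ± 0.25 SE, adjusted p = 0.00781). It was the only Sprr gene that passed the filter through Itga6low CD80neg alone. Sprr2i lay lower without overlap, at 12.6 and 8.39 TPM against 22.6 and 16.5, and missed the threshold on deposited TPM (adjusted p = 0.0803). Sprr2i was called lower under each of the 4 other scalings (limma adjusted p up to 0.0435). Sprr2h lay higher without overlap, at 73.4 and 166 TPM against 12.1 and 56.3, and missed the threshold on deposited TPM (adjusted p = 0.0725). Sprr4 had 20.4 and 39.1 TPM against 13.0 and 0 (adjusted p = 0.0788).

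Ivl and Cnfn had no call on deposited TPM, and both were called lower when scaled to keratinocyte genes (log2 fold changes of -2.70 and -3.65, limma adjusted p of 0.0211 and 0.0105). Ivl encodes involucrin, an early envelope scaffold, and had 10.8 and 28.8 TPM against 5.81 and 19.7 (log2 fold change 0.66 ± 0.70 SE, adjusted p = 0.427). Cnfn had 25.2 and 83.8 TPM against 42.6 and 61.5 (log2 fold change -0.15 ± 0.63 SE, adjusted p = 0.848). In both genes the populations overlapped and replicate 2 was the higher library of each.

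**Figure D2:**
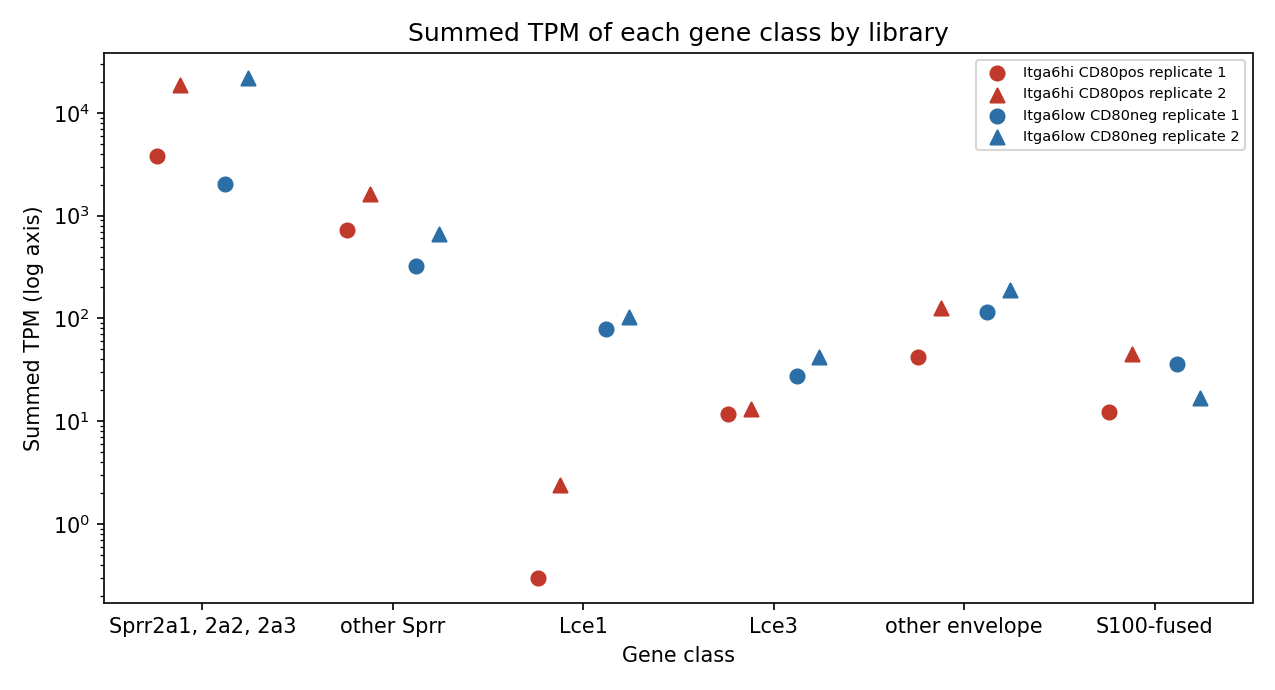
Summed TPM of each gene class in each library, on a log axis, with red for Itga6hi CD80pos and blue for Itga6low CD80neg. The Lce1 sums are 0.2997 and 2.41 TPM against 79.3 and 102, while the sums of Sprr2a1, Sprr2a2 and Sprr2a3 lie further apart between replicates than between populations.

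Set against each other within a library, Sprr outweighed Lce in both populations, and by more in Itga6hi CD80pos. The ratio of summed Sprr to summed Lce TPM was 372 and 1262 in Itga6hi CD80pos and 22.1 and 155 in Itga6low CD80neg. Lce made up 0.268% and 0.0792% of the summed Sprr and Lce TPM in Itga6hi CD80pos, against 4.34% and 0.642% in Itga6low CD80neg. Sprr2a1, Sprr2a2 and Sprr2a3 dominate that sum. Without these 3 genes the Lce share was 1.65% and 0.979% in Itga6hi CD80pos, against 24.8% and 18.1% in Itga6low CD80neg. A share within a library does not depend on a scaling by 1 factor per library, and both forms separated the populations. The median log2 fold change of the 15 Sprr genes was 0.31. That of the 20 tested Lce genes was -2.05, or -1.97 over the 15 of them not at 0 in a whole population, and -2.04 over all 21 without a filter. All tested genes had a median of 1.27. The distance between the Sprr and Lce medians was 2.36 on the log2 scale.

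Loricrin was set against Sprr1b within each library. The ratio of Lor to Sprr1b TPM was 0.00344 and 0.00558 in Itga6hi CD80pos and 0.406 and 0.330 in Itga6low CD80neg. Per 1000 TPM of Krt10, the keratin of spinous cells, Lce1 genes summed to 0.0993 and 1.31 TPM in Itga6hi CD80pos, against 380 and 194 TPM in Itga6low CD80neg. Lor had 0.481 and 2.27 TPM against 214 and 107 on the same scale. The 12 Sprr genes outside Sprr2a1, Sprr2a2 and Sprr2a3 summed to 239 and 879 TPM against 1559 and 1253 per 1000 TPM of Krt10. Ivl had 3.59 and 15.7 TPM against 27.8 and 37.3 on that scale, and Cnfn had 8.35 and 45.6 TPM against 204 and 117. All of these ratios were lower in Itga6hi CD80pos without overlap. Sprr1b overlapped, at 140 and 407 TPM against 528 and 323 per 1000 TPM of Krt10. Krt10 itself was higher in Itga6hi CD80pos, at 3019 and 1837 TPM against 209 and 526, which lowers every ratio to it there. On deposited TPM, Ivl and Cnfn overlapped, and the same 12 Sprr genes summed to 722 and 1615 TPM against 326 and 660.

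**Figure D3:**
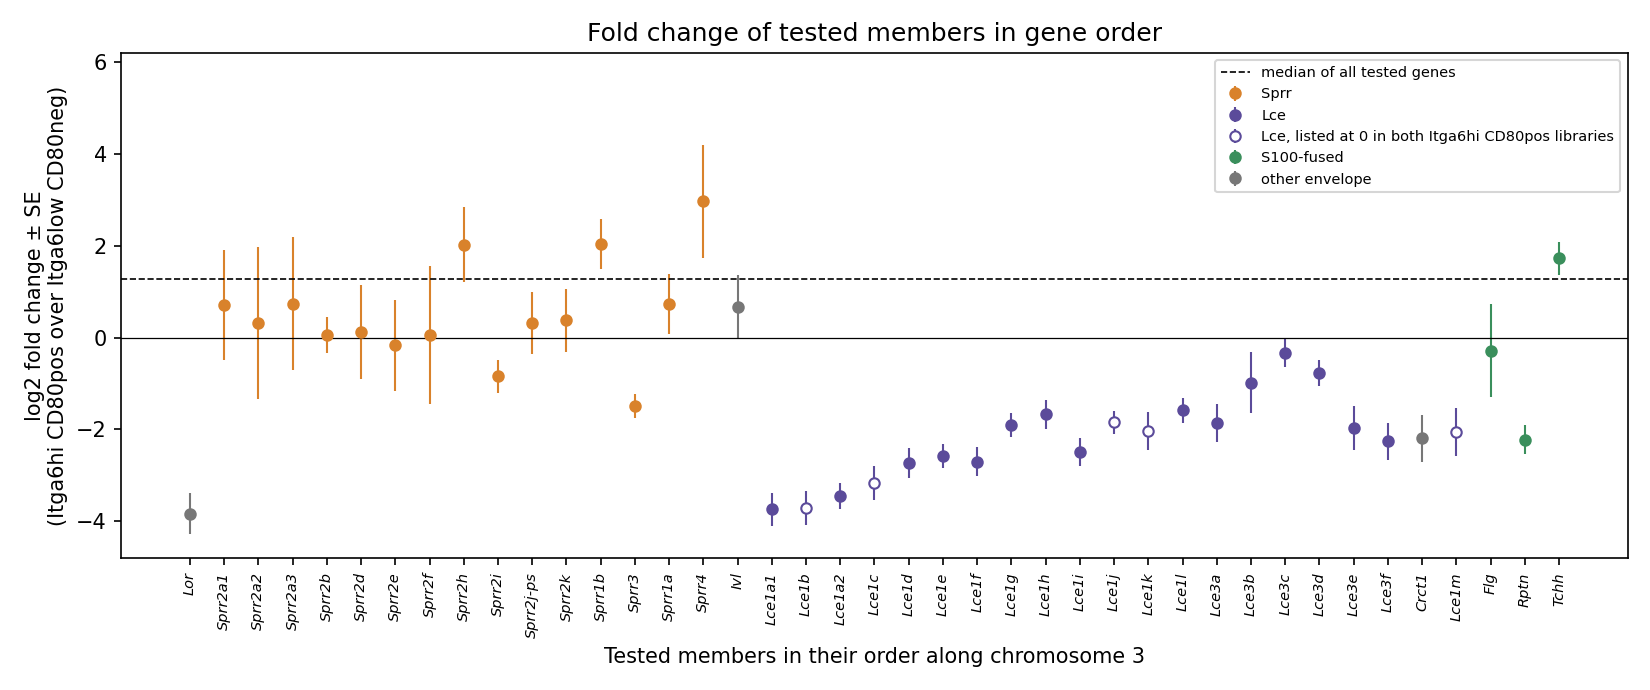
Log2 fold change (Itga6hi CD80pos over Itga6low CD80neg, ± SE, n = 2 libraries each) of the tested members on chromosome 3, in chromosomal order. The dashed line is the median of all tested genes at 1.27, and open symbols mark genes listed at 0 in both Itga6hi CD80pos libraries, whose fitted value depends on the pseudocount. Sprr genes other than Sprr3 and Sprr2i lie around or above 0, and all Lce genes lie below it.

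Genes of one class lie next to each other on the chromosome. Reading up the plus strand, Lor and Lelp1 came first, then the Sprr genes and Ivl, then Lce6a, Lce1, Lce3, Crct1 and Lce1m, and last the S100-fused genes. Every tested gene from Lce1a1 to Lce1m, Crct1 included, had a negative log2 fold change, and this did not change under the other 4 scalings. Those scalings all moved the median of all tested genes down, so this could hardly have changed. Lor, at the far side of the Sprr genes, had a log2 fold change near that of Lce1a1 at a pseudocount of 1 TPM, and at 0.1 TPM it was -4.28 against -5.90 for Lce1a1. The interval held 10 further protein-coding genes of the table that the selection did not take: 4 were lower without overlap, 2 were higher and 4 overlapped or had 0. Over all genes above 0 in at least 1 library, 14.5% were lower and 43.1% higher without overlap. Of the 2 higher, Smcp was near 0, at 0.0568 and 0.0893 TPM against 0 and 0, and Gm9774 had 1.67 and 3.40 TPM against 0 and 0. 2310050C09Rik, which lies between Lce1l and Lce3a, had 0 and 0.101 TPM against 8.25 and 4.76. Kprp, a keratinocyte proline-rich protein gene among the Lce1 genes, had 0.0298 and 0.163 TPM against 3.63 and 0.736. Crnn, the S100-fused gene of cornulin, overlapped at 1.18 and 1.03 TPM against 0.864 and 1.15.

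Scaling between libraries moved the whole table. Under median-of-ratios scaling, quantile normalization, haemoglobin left out of the total and scaling to the 12 keratinocyte markers, the median of all tested genes was 0.24, 0.27, 0.16 and -1.79 in place of 1.27. The scaling to keratinocyte markers uses their summed TPM, 67763 and 64881 in Itga6hi CD80pos. The basal keratins Krt14 (26606 and 29432 TPM) and Krt5 (15307 and 13058 TPM) were its largest terms there. That scaling thus leans on basal genes, which were higher in Itga6hi CD80pos. The Lce median stayed negative in all 5, from -4.55 to -2.05, and 16 of the 17 lower Lce calls were kept in all 5 (Lce1m was lost, adjusted p up to 0.0636). Over all tested genes, 8.30% were called lower in all 5. Of the members as a whole, 20 lower calls were kept, among them Lor, Crct1, Rptn and Sprr3, and 0 higher calls (background 0.698%). Of the 21 lower calls on deposited TPM, 18 were on genes that passed the filter through Itga6low CD80neg alone. These were 16 Lce genes, Rptn and Sprr3. They were bound to differ, so the kept counts are a description. The 4 other scalings also all moved the median of all tested genes down. They could hardly undo a lower call, and they worked against keeping a higher one. Higher calls covered 10.2%, 10.7%, 7.71% and 0.742% of all tested genes under the 4 other scalings, and lower calls 11.9%, 11.3%, 10.8% and 43.9%. The Sprr median of 0.31 turned to -0.77, -0.58, -0.93 and -2.90 under the 4 others. Relative to the median of all tested genes, the Sprr median was lower under each, which a scaling by 1 factor per library could hardly change. Scaled to keratinocyte genes, 10 of 15 Sprr genes were called lower.

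**Figure D4:**
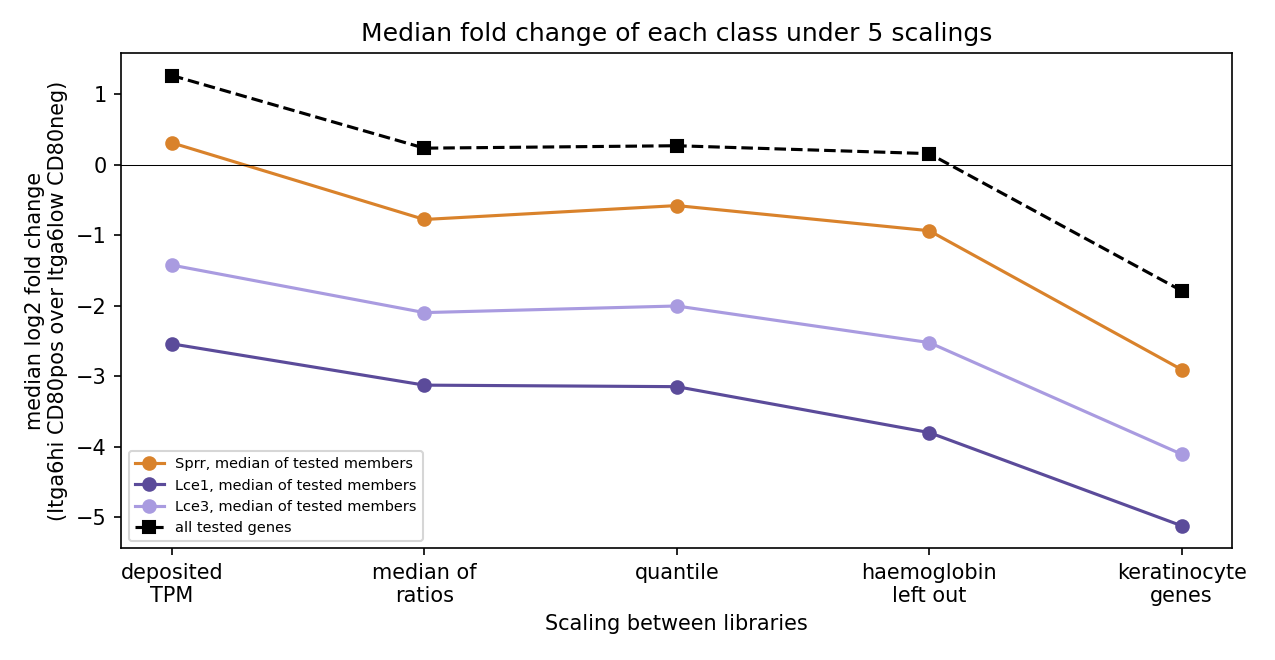
Median log2 fold change (Itga6hi CD80pos over Itga6low CD80neg) of the tested Sprr, Lce1 and Lce3 genes and of all tested genes under 5 scalings of the libraries. The order, all genes above Sprr, Sprr above Lce3 and Lce3 above Lce1, is the same under each, while the Sprr line crosses 0.

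The sequence upstream of each gene was searched as well. RefSeq windows on GRCm38.p6 were at hand for 44 members, and the 250 bases before each start were searched on both strands for 5 motifs. The AP-1 core TGACTCA, read as TGAGTCA on the other strand, was found in 8 of 14 Sprr windows, in 0 of 20 Lce windows and in those of Lor and Ivl. It was in 4.46% of 32851 windows of all genes. AP-1 is a dimer of Fos and Jun proteins. Of 10 Sprr2 windows 7 held the core in that reverse form, its first base between 193 and 198 bases before the start. These 27-base stretches show how alike the positions are, each with the core in capitals, plus strand, 5′ to 3′:
Sprr2b, chr3:92316500-92316526: aaaggactctTGAGTCAcaagactcaa
Sprr2d, chr3:92338937-92338963: gagtgctcacTGAGTCAcaggtctcaa
Sprr2e, chr3:92351940-92351966: gagtgctcacTGAGTCAcaggtctcaa
Sprr2f, chr3:92364980-92365006: aactgaatatTGAGTCAcagtgctcaa
Sprr2h, chr3:92385477-92385503: ggatggtctcTGAGTCActgcacttta
Sprr2i, chr3:92407788-92407814: aagggctcacTGAGTCAcaggactgaa
Sprr2k, chr3:92432376-92432402: gaatgtcctcTGAGTCActgtacttga
Among these 7 genes Sprr2h lay higher and Sprr2i lower without overlap, and the other 5 overlapped.

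The TATA box letters TATAAA were found in 10 of 14 Sprr windows and in 4 of 20 Lce windows, against 12.4% of all windows. The interferon response element core was in 0 of 44 member windows (2.98% of all), the antioxidant response core TGACNNNGC in 2 of 14 Sprr and 5 of 20 Lce windows (10.2% of all) and the GC box GGGCGG in 1 of 14 Sprr and 0 of 20 Lce windows (32.7% of all). In Sprr1a an antioxidant core shares bases with an AP-1 core, and a match is a description of letters, not a site in use. Sprr2h, the Sprr2 gene with the largest log2 fold change, and Lor, a gene called lower in all 5 scalings, both hold the AP-1 core and the TATA letters, which stand in capitals in the 200 bases before their starts:
Sprr2h, chr3:92385485-92385684, plus strand: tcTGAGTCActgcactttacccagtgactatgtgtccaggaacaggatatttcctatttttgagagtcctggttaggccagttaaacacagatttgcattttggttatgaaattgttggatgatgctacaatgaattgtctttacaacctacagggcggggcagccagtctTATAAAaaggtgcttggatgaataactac
Lor, chr3:92083143-92083342, minus strand: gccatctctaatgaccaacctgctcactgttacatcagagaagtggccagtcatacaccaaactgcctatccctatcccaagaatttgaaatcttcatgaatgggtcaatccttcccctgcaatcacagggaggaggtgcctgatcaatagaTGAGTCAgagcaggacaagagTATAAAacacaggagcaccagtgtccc
Lce1a1, the most abundant Lce1 gene, and Lce3c, the Lce gene nearest to equal levels, hold neither in theirs:
Lce1a1, chr3:92648308-92648507, minus strand: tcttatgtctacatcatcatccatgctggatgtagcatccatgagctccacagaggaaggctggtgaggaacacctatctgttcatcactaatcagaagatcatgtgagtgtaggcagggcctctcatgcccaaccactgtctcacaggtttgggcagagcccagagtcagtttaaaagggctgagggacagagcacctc
Lce3c, chr3:92944286-92944485, plus strand: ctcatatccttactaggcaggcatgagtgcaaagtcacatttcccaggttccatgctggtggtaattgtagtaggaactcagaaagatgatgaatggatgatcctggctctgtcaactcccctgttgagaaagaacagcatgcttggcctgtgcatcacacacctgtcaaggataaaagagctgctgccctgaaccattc

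Genes that build or regulate the envelope were also read. Of 9 crosslinking enzymes, protease inhibitors and scaffold proteins tested, 6 were higher in Itga6hi CD80pos and 0 lower on deposited TPM. The desmosomal plakin Dsp had 695 and 554 TPM against 43.4 and 33.3 (adjusted p = 0.00417), and the envelope scaffold Evpl had 30.98 and 57.7 TPM against 4.76 and 6.91 (0.00686), and its relative Ppl had 22.6 and 36.3 TPM against 5.36 and 4.61 (0.00666). The cystatin Csta1 had 132 and 229 TPM against 16.2 and 69.6 (0.0397). Tgm3, a transglutaminase of late differentiation named here after its value was seen, had 131 and 43.8 TPM against 19.2 and 17.0 (0.0276). Of 9 tested proteases and inhibitors, 4 were higher and 0 lower, led by the membrane protease St14 at 68.3 and 58.2 TPM against 4.16 and 7.21 (0.00434). The inhibitor Spink5 (0.00619), the protease Prss8 (0.0136) and the calpain inhibitor Cast (0.0140) were the others. Asprv1, the protease that processes filaggrin, was also named after its value was seen and lay at 13.9 and 20.2 TPM against 28.0 and 67.5 (0.0643). Asprv1 was called lower under each of the 4 other scalings. All adjusted p in this paragraph are from limma over all tested genes, where 57.0% were called higher, and 0 calls of either list were kept in all 5 scalings.

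Of 15 transcription factors of keratinocyte differentiation, 9 were called higher and 0 lower on deposited TPM, a share near the 57.0% of all tested genes called higher. Tfap2a had 89.0 and 79.9 TPM against 3.13 and 4.90, Zfp750 had 87.0 and 103 TPM against 8.51 and 17.9, and Pou3f1 had 17.3 and 44.2 TPM against 1.79 and 10.7. Of 7 AP-1 subunits, 2 were called higher, a smaller share than that background, and 0 lower. Fosl1 had 90.002 and 94.2 TPM against 5.66 and 6.25 (adjusted p = 0.00296 by limma) and Fosl2 had 55.3 and 52.3 TPM against 23.6 and 11.9 (0.0210). The median log2 fold change was 2.10 for the transcription factors and 0.91 for the AP-1 subunits, beside 1.27 for all genes. No call of these lists was kept in all 5 scalings.

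Spinous and granular companions had a median between those of the Sprr and the scaffold genes. Of the 17 genes in this list, 5 had a lower mean in Itga6hi CD80pos: Krt77, Krt78, Kprp, Dsc1 and Cdsn. Of 15 tested, 3 were called higher and 0 lower, a smaller share than the 57.0% of all tested genes called higher. The 3 were Krt10 at 3019 and 1837 TPM against 209 and 526 (adjusted p = 0.0227 by limma), the surface protein Lypd3 at 695 and 994 TPM against 61.5 and 272 (0.0335) and the desmosomal cadherin Dsg1b at 53.1 and 40.3 TPM against 4.49 and 13.3 (0.0135). Of 4 wound keratins, Krt6a, at 14603 and 11469 TPM against 809 and 2323 (0.0378), and Krt17, at 4889 and 2144 TPM against 262 and 702 (0.0299), were higher. The median log2 fold changes of these lists were 1.07 and 2.58, and 0 calls were kept in all 5 scalings. None of these 6 lists had a member called lower on deposited TPM. Under each of the 4 other scalings Asprv1 and the transcription factor Hopx were called lower (limma adjusted p up to 0.0185 and 0.0400).

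**Figure D5:**
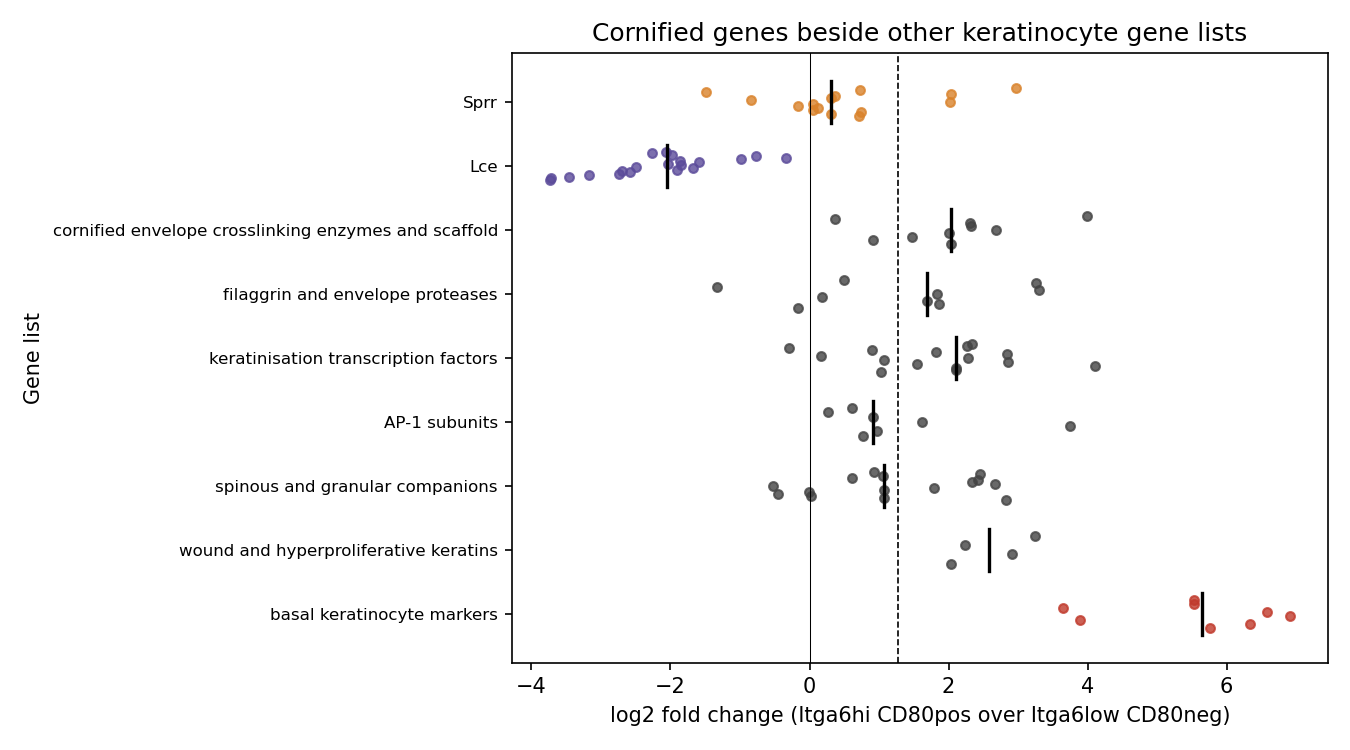
Log2 fold change (Itga6hi CD80pos over Itga6low CD80neg) of each tested gene in the Sprr and Lce families and in 7 lists of keratinocyte genes, on deposited TPM. Each point is a gene, the black tick is the list's median and the dashed line is the median of all tested genes at 1.27. Every Lce gene lies left of 0, and the median of the basal markers lies farthest right.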

How the data were processed

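The authors deposited TPM per gene for 4 libraries, made with kallisto 0.44.0 and build mm10 per the submitters' processing notes. Each deposited TPM column sums to 1000000. The annotation, the summing to genes and any filter are not given in the sources used here. Depth is unknown, so no count-based interval is given.

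Genes reaching 1 TPM in 2 or more libraries were tested with limma 3.58.1 in R 4.3.3 (lmFit, eBayes with a trend) on log2(TPM + 1), two-sided, Benjamini-Hochberg adjusted over all genes tested. Fold changes on that scale understate changes of low genes. With 2 libraries against 2 an exact permutation test cannot pass 0.05, and none was run. The fitting was tested on simulated data. Alternatives were pseudocounts 0.1 and 5, no filter, a mean of at least 5 TPM, 4 scalings, the replicate number as a block and each library left out.

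The members and lists were chosen with earlier results of these data known. Every member is given with its values or a range. Of each pathway list up to 4 called genes by fold are named, and of each marker list the gene highest in any library; 1 gene given by this rule is not reported here, and the ratios to Krt10 and Sprr1b were chosen after values were seen. Positions and transcripts come from GENCODE M21 on GRCm38, which held all 47 identifiers, and upstream windows from RefSeq on GRCm38.p6, where 39 of 44 run into an annotated transcript start. Shared reads were judged by 31-base words of the transcripts. Figures were drawn with matplotlib 3.10.9.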

Additional observations from a re-analysis of the deposited data

How the results depend on the processing

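Depth is unknown, only 2 libraries stand in each population, and keratinocyte RNA was a small part of Itga6low CD80neg, so a change within keratinocytes was not separated from a change in mix. Calls over all tested genes were 7686 higher and 1277 lower on deposited TPM. The higher calls were 4564 with no filter, 1372 under median-of-ratios scaling, 1448 under quantile normalization, 1039 with haemoglobin left out and 100 scaled to keratinocyte genes. The lower calls were 613 at a mean of at least 5 TPM and 5920 scaled to keratinocyte genes. Leaving out 1 library gave 0 to 8227 higher and 0 to 1237 lower calls. Of the members, 2 were higher on deposited TPM. The count was 0 with no filter and under each of the 4 other scalings, and 1 at a mean of at least 5 TPM; with the replicate block it was 4. The members called lower, 21, were 5 at a mean of at least 5 TPM, where 21 members were tested, and 36 scaled to keratinocyte genes. Leaving out 1 library gave 0 to 3 members higher and 0 to 21 lower.

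The Sprr median of 0.31 turned to -0.77 (median of ratios), -0.58 (quantile), -0.93 (haemoglobin left out) and -2.90 (keratinocyte genes), and ran from -0.63 to 1.46 with 1 library left out. It fell below 0 without Itga6hi CD80pos replicate 2 (-0.48) and without Itga6low CD80neg replicate 1 (-0.63). The Lce median of -2.05 was -4.63 and -0.83 at pseudocounts 0.1 and 5, -3.58 at a mean of at least 5 TPM, and -2.61, -2.56, -3.21 and -4.55 under the 4 scalings in the same order, and ran from -2.47 to -1.85 with 1 library left out. Their distance, 2.36, was 4.97 and 1.08 at the 2 pseudocounts and 4.09 at a mean of at least 5 TPM, and ran from 1.70 to 3.51 with 1 library left out. The Sprr share of summed Sprr and Lce TPM was 2.32 percentage points higher in Itga6hi CD80pos, 2.49 after quantile normalization and 0.468 to 4.16 with 1 library left out, lowest without Itga6low CD80neg replicate 1 and highest without its replicate 2. Scaled to keratinocyte genes, the log2 fold change turned negative without a call for Sprr2a3 (-2.79), Sprr2f (-3.09), Sprr2h (-1.46), Sprr2k (-2.37) and Tchh (-1.05), and with a lower call for Sprr2a1 (-2.70), Sprr2a2 (-3.25), Sprr2b (-3.06), Sprr2d (-3.39), Sprr2j-ps (-2.90), Sprr1b (-1.52), Sprr1a (-2.82) and Ivl (-2.70). The causes were not tested.

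The replicate numbers 1 and 2 occur in both populations, but nothing in the labels ties equal numbers to 1 animal. Over tested genes the deviations of equal-numbered libraries from their population means correlated at 0.11, with 2 pairs, which does not settle a pairing. The replicate block gave 4 members higher and 22 lower, adding Sprr2h, Sprr4 and Lce3b, and 8044 and 1452 over all tested genes. That fit had 1 residual degree of freedom and infinite prior ones, so every spread was taken from the trend over all genes. Its calls therefore do not measure the spread of each gene, and Lce3b overlapped between the populations.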

Other observations

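Markers of other cell types were read in every library beside the cornified genes. Of 6 tested sebaceous gland genes, 5 were higher in Itga6hi CD80pos, beside 57.0% of all tested genes, and 0 of these calls were kept in all 5 scalings. Krt79, a keratin of the follicle opening and sebaceous duct, was the highest in level at 119 and 272 TPM against 12.6 and 16.0. Of 5 tested skeletal muscle genes, 4 were lower, with the actin gene Acta1 at 0.0302 and 0 TPM against 40.2 and 13.8. Of 6 tested macrophage and neutrophil genes, 2 were lower and 0 higher. S100a9, the calprotectin subunit that keratinocytes also make, was the highest of that list, at 610.5 and 409.5 TPM against 363 and 1588 (adjusted p = 0.557 by limma). Of 4 tested Langerhans cell genes 1 was higher, the epithelial adhesion gene Epcam, at 56.1 and 96.2 TPM against 2.18 and 5.67. Of 8 T cell genes 7 had a lower mean in Itga6hi CD80pos. Of the 2 tested, the receptor chain Trac was lower in all 5 scalings, at 0.171 and 0.281 TPM against 1.53 and 2.01. The receptor chain Trbc2 was higher on deposited TPM, at 142 and 93.1 TPM against 10.6 and 34.9, a call not kept in all 5 scalings. Of 5 endothelial genes, 1 had a lower mean in Itga6hi CD80pos: Tek, which reached the highest TPM, had 0.182 and 0.200 TPM against 6.05 and 0.937. The 1 tested, Pecam1, had no call, at 2.34 and 5.84 TPM against 0.253 and 2.03.

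Sprr2g, which the table types as a polymorphic pseudogene, had 13.7 and 61.9 TPM in Itga6hi CD80pos and 9.40 and 66.8 TPM in Itga6low CD80neg, with replicate 2 the higher library of each population as in Sprr2a2, Sprr2d, Sprr2e and Sprr2f. Sprr2c-ps had 0 and 0.248 TPM against 0 and 0.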
